A study of Homo sapiens with 10 samples.

Results

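The proteasome genes measured here were chosen by symbol: PSMA, PSMB, PSMC, PSMD, PSME or PSMF followed by digits only, without PSMB8 and PSMB9. The rule found 42 of the 18480 genes in each table of the series. They comprise 17 genes of the 20S core particle, 17 of the 19S regulatory particle, and 8 others, namely 3 assembly chaperones of the 19S particle, 4 activator subunits and the regulator PSMF1 (PI31).

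The cells were HEK-293, an established line derived from human embryonic kidney, given small interfering RNAs (siRNAs) at a final 10 nM with the transfection reagent RNAiMax. The 10 arrays form 5 groups of 2 biological replicates per the labels: a scramble control siRNA, siRNA 1 or siRNA 2 against the long noncoding RNA LINC00324, and siRNA 1 or siRNA 2 against the long noncoding RNA LOC400043. Every group, control included, therefore carried an siRNA and the reagent, and no source used here gives the time of harvest. Total RNA was read on Affymetrix HuGene-1_0-st arrays and is given as log2 signal in 2 tables, one per lncRNA, each with 6 arrays. Both tables hold the same 2 scramble arrays but were normalized separately, so that differences were taken within a table only, and the comparisons against scramble in a table share their controls. In these bulk samples, fewer cells of a type and less RNA per cell cannot be told apart.

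The proteasome is the main protease of the cytosol and nucleus. Its core particle is a barrel of alpha and beta rings, with the cutting sites on the inner face of the beta rings, and the 19S particle caps the barrel, binds ubiquitin-tagged proteins, removes the ubiquitin chain in its lid and unfolds the protein with the ATPase ring of its base. Other caps open the barrel without ubiquitin, among them PA28, made of PSME1 and PSME2 or of PSME3, and PA200, the product of PSME4. Subunits are made in matched amounts, and when proteasome activity drops the transcription factor NFE2L1 raises subunit genes together.

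Most proteasome genes differed little from scramble with each of the 4 siRNAs. A gene counts as called at a Benjamini-Hochberg adjusted p under 0.05 over all 18480 genes in limma. By that rule 32 of the 42 genes were called with none of the 4 siRNAs against scramble, 10 were called with exactly 1, and 0 with more than 1 (76.2%, 23.8% and 0%). Of all 18480 genes, matched between the tables by symbol, the shares were 73%, 19.4% and 7.58%. Median absolute differences from scramble over the 42 genes were 0.06 and 0.11 (log2) with LINC00324 siRNA 1 and siRNA 2, and 0.09 and 0.10 with LOC400043 siRNA 1 and siRNA 2. Over all genes they were 0.11, 0.10, 0.12 and 0.14 in the same order. The 95% interval of the difference lay within a fold of 1.5 in either direction for 41, 40, 42 and 39 of the 42 genes (97.6%, 95.2%, 100% and 92.9%), against 87.1%, 86.9%, 89.6% and 84.9% of all genes. Replicates of these genes differed less than those of all genes. In the LINC00324 table the SD of replicate 1 minus 2 was 0.10 in each group, against 0.19, 0.24 and 0.13. In the LOC400043 table it was 0.11, 0.08 and 0.08, against 0.19, 0.13 and 0.14 (scramble, siRNA 1, siRNA 2). Interval width depends on this spread, so these shares do not compare the responses to the siRNAs alone.

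**Figure D1:**
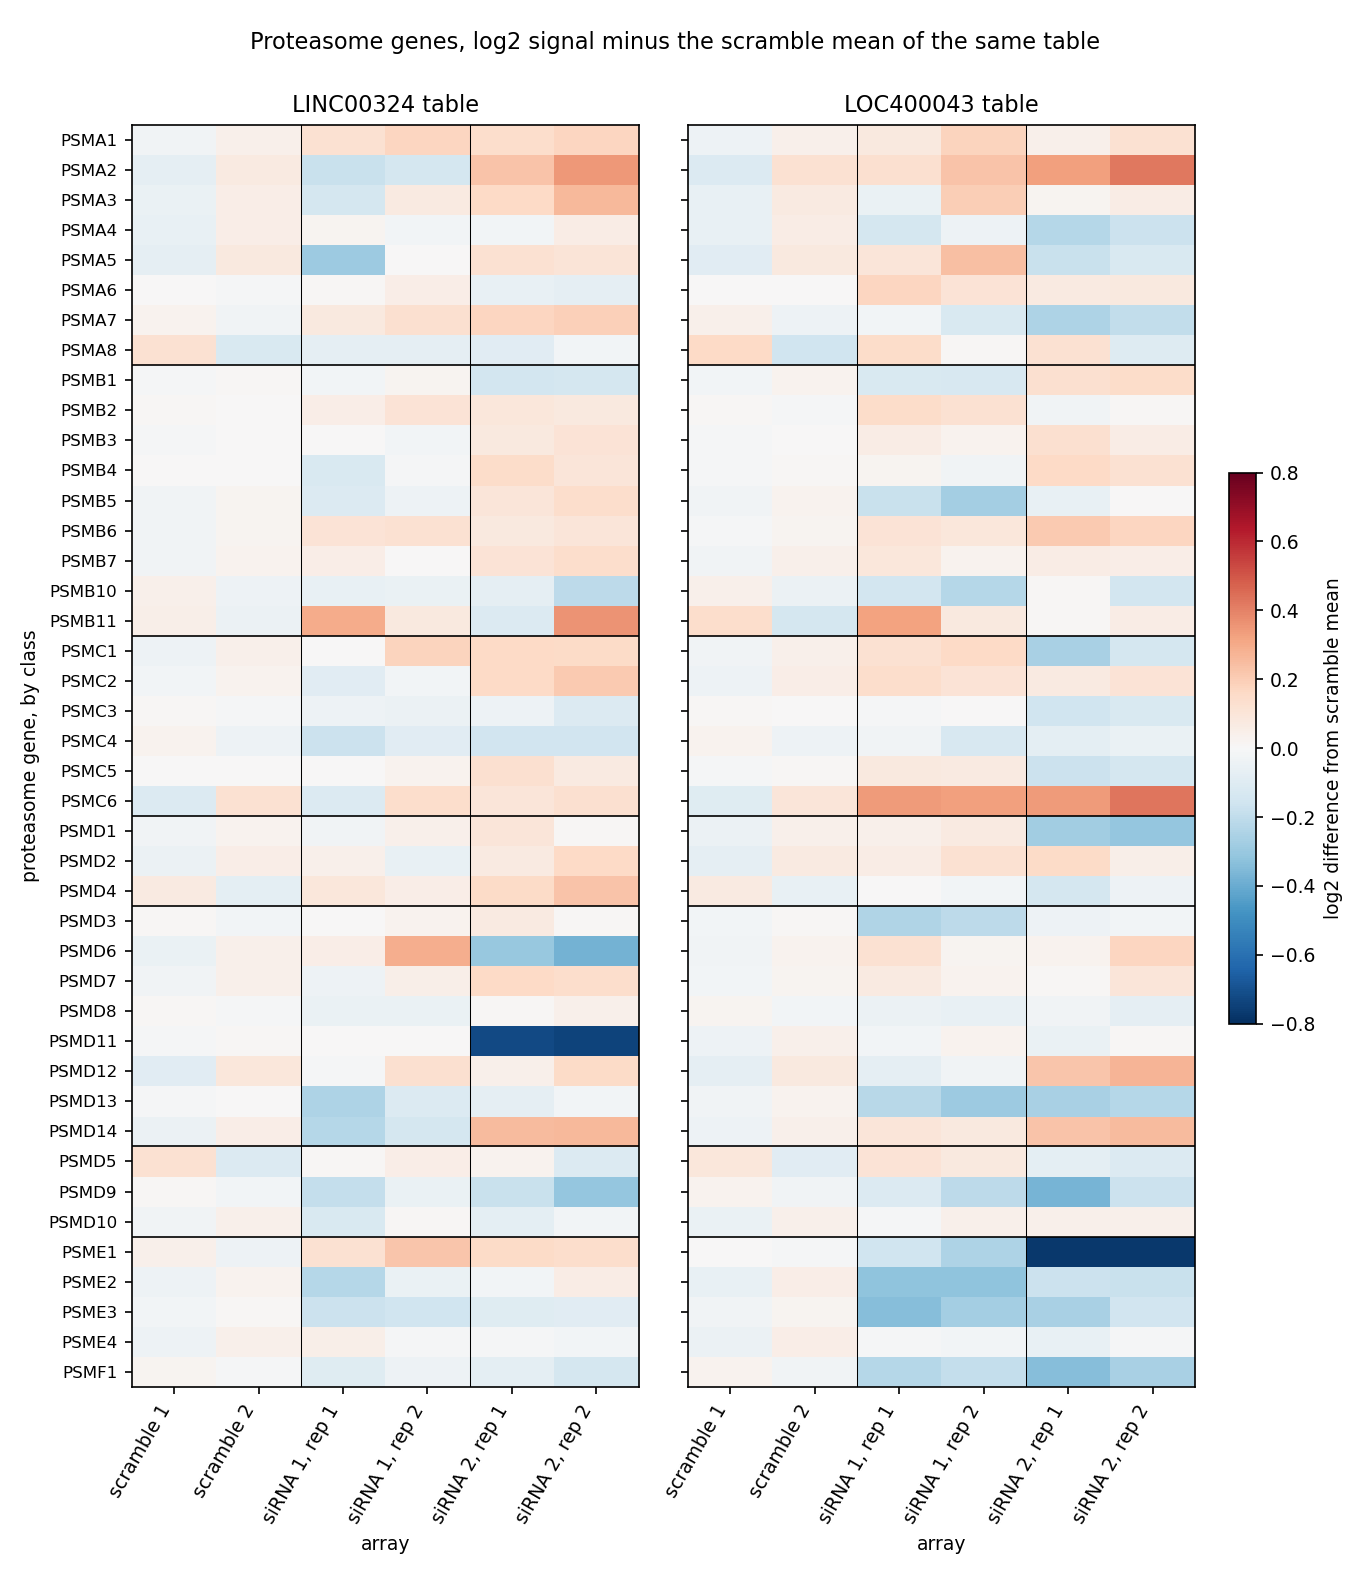
Log2 signal of each of the 42 proteasome genes (rows) in each array (columns) minus the mean of the 2 scramble arrays of the same table, on a colour scale from -0.8 to 0.8. Black lines part, from the top, the 20S alpha, 20S beta, 19S ATPase, other 19S base, 19S lid, 19S chaperone, and activator and PI31 genes. The darkest cells are PSMD11 with LINC00324 siRNA 2 (difference -0.73) and PSME1 with LOC400043 siRNA 2 (difference -0.77).

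With LINC00324 siRNA 1, 0 of the 42 genes were called, where 0.498% of all genes were called, 0.216% higher and 0.281% lower. Of the 42, 0 had an unadjusted p under 0.05, beside 13.2% of all genes. With an intensity trend in the variance, 1 was called higher and 1 lower, beside 931 of all 18480 genes called. With LINC00324 siRNA 2, 1 gene (2.38%), PSMD11, was called lower, where 1.85% of all genes were called, 0.503% higher and 1.34% lower. With LOC400043 siRNA 1, 2 genes (4.76%) were called, both lower, where 11.5% of all genes were called, 4.05% higher and 7.46% lower. With LOC400043 siRNA 2, 7 genes (16.7%) were called, 3 higher and 4 lower, where 21.7% of all genes were called, 7.9% higher and 13.8% lower. With arrays centred on their medians the split for LOC400043 siRNA 2 became 5 higher and 1 lower, beside 4087 of all 18480 genes called. Without a trend or centring, shares for the proteasome genes were near or below those of all genes in each of these comparisons. With the trend they were above those of all genes for LINC00324 siRNA 2 and for both LOC400043 siRNAs (counts are given with the alternatives at the end).

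The siRNAs against one lncRNA were then compared with each other. For LINC00324, siRNA 1 minus siRNA 2 called 2 of the 42 genes, PSMD11 and PSMD14, in opposite directions (4.76%), where 3.07% of all genes were called. The siRNA 1 values were higher for 2.28% and lower for 0.785% of all genes. For LOC400043 the comparison called 6 (14.3%), with PSMA5, PSMC1, PSMD1 and PSME1 higher with siRNA 1 and PSMB1 and PSMD12 higher with siRNA 2, where 17.1% of all genes were called, 9.63% higher with siRNA 1 and 7.5% lower. No gene was called between the siRNAs of both lncRNAs. When any one siRNA array was left out, only PSME1 of these 6 was still called for LOC400043; the PSMA5 call was also lost with centring on array medians and with the 10 arrays of the value table, and PSMD11 was not called for LINC00324 without either siRNA 2 array.

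**Figure D2:**
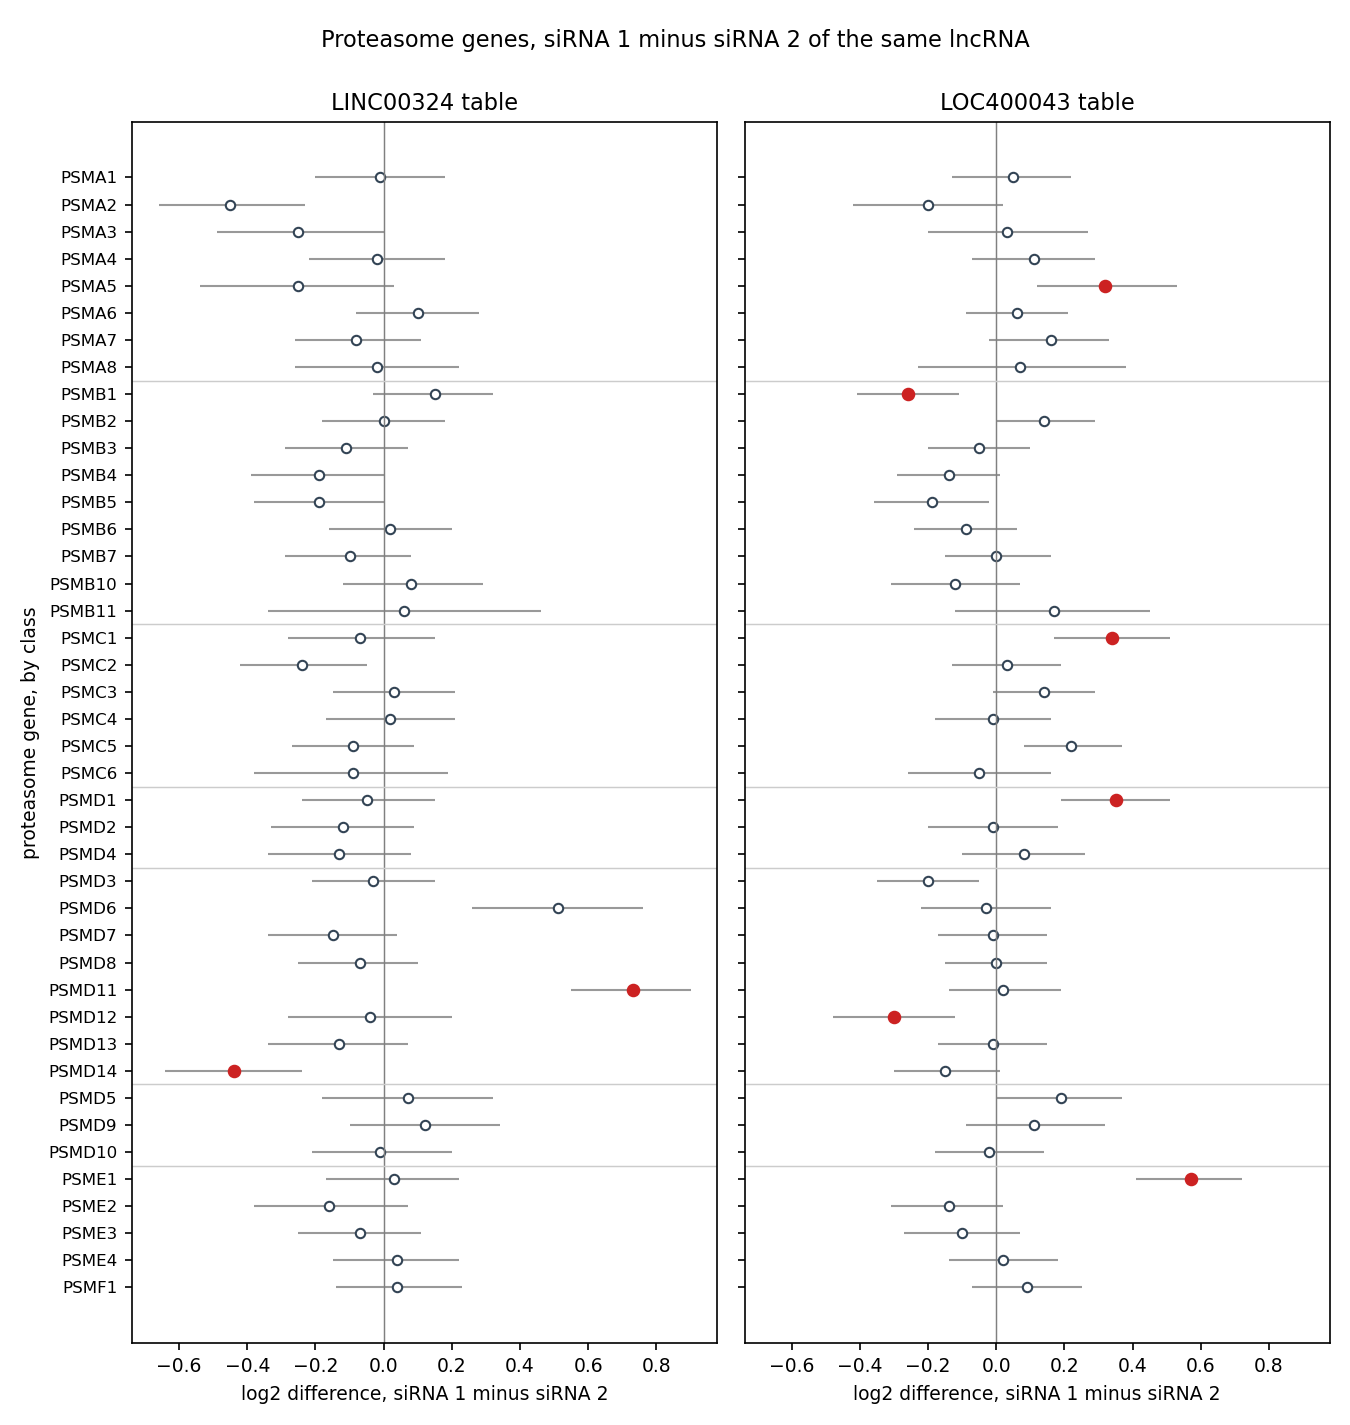
Log2 difference between siRNA 1 and siRNA 2 of the same lncRNA for the 42 proteasome genes (points) with 95% intervals from limma (lines); red points are called. PSMD11 (0.73) stands furthest to the right in the LINC00324 panel and PSME1 (0.57) in the LOC400043 panel.

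The line was checked by marker genes. Of 7 genes that HEK-293 expresses, 6 were found, with table means (log2) from 6.87 to 11.42 in the LINC00324 table and from 6.67 to 11.27 in the LOC400043 table. Of these, VIM (11.42 and 11.27) and NEFM (10.12 and 9.61) read highest, KRT8 read 7.45 and 7.48, and PAX2 (6.87 and 6.67) and LHX1 (7.06 and 6.71) read lower. The probe set named KRT18 (9.20 and 8.96) has 4 probes and lies on chromosome 9, while the RefSeq gene is on chromosome 12. The 7 markers of other cells had means from 3.88 to 6.90 and from 3.70 to 6.76. PTPRC (leukocytes), ALB (hepatocytes) and DCN (fibroblasts) lay between 3.70 and 4.44, but COL3A1 (fibroblasts), at 6.90 and 6.76, read about as high as PAX2 and LHX1, so that the 2 lists were not fully separated. With either LINC00324 siRNA 0 of the 6 and 0 of the 7 markers were called, and with the LOC400043 siRNAs 3 and 2, all of the HEK-293 list. Of all genes, 0.498% and 1.85% were called with the LINC00324 siRNAs and 11.5% and 21.7% with the LOC400043 siRNAs. VIM was called lower with LOC400043 siRNA 1 and higher with siRNA 2, from 11.32 and 11.44 with scramble to 10.59 and 10.62 with siRNA 1 and 11.85 and 11.80 with siRNA 2. NEFM was called lower with both (-0.47 and -1.31, adjusted p = 0.0075 and 0.000275), and KRT18 with siRNA 1 (-0.31, adjusted p = 0.0406). The part of these markers in the proteasome values was not tested. LINC00324 itself, listed under its former symbol C17orf44, read 5.79 and 5.80 in the scramble arrays, 5.37 and 5.03 with siRNA 1 and 5.24 and 5.60 with siRNA 2. All 4 siRNA arrays were lower, but the differences of -0.60 and -0.38 were not called (adjusted p = 0.184 and 0.308). In the LOC400043 table the same probe set differed by -0.25 and -0.22 with siRNAs that do not target it (adjusted p = 0.0931 and 0.0906). No probe set of LOC400043 was found, so the level of that target was not analysed here.

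The core and regulatory particles were compared first as groups. With LINC00324 siRNA 1 the median log2 difference from scramble was 0.00 for the core and 0.00 for the regulatory genes, against 0.02 for all genes. With LINC00324 siRNA 2 it was 0.11 for the core and 0.09 for the regulatory genes, against 0.01 for all genes. In that comparison 13 of 17 core genes and 12 of 17 regulatory genes lay above 0, compared with 9585 of 18480 genes overall. The 2 arrays with siRNA 2 gave core medians of 0.09 and 0.11 and regulatory medians of 0.07 and 0.07, above the scramble arrays at -0.01 and 0.01 for the core and at -0.03 and 0.03 for the regulatory genes. Subtracting each array's median raised the 2 group medians to 0.18 and 0.16. Over all genes, array medians were 7.66 and 7.64 with siRNA 2, against 7.73 and 7.70 with scramble. Centring thus moved the differences of all genes by the same amount and left the place of these genes among all genes unchanged. No core gene was called with LINC00324 siRNA 2, so the shift of the group medians is a description of small differences and not of called genes.

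With LOC400043 siRNA 1 the medians were 0.07 for the core and 0.05 for the regulatory genes, and with siRNA 2 they were 0.04 and -0.02, against 0.03 and 0.01 for all genes. The core median exceeded the regulatory median by 0.00 and 0.02 with the LINC00324 siRNAs and by 0.02 and 0.06 with the LOC400043 siRNAs. The SD between replicate arrays of such medians was 0.011 (core) and 0.031 (regulatory) in the LINC00324 table and 0.019 and 0.027 in the LOC400043 table. In the scramble arrays of the LOC400043 table the core genes read -0.01 and 0.01 and the regulatory genes -0.03 and 0.03. The core genes read 0.04 and 0.05 in the arrays with LOC400043 siRNA 2 and the regulatory genes -0.03 and -0.01, on opposite sides of 0 in both arrays. The regulatory values with siRNA 2 did not stand apart from those of the scramble arrays. With arrays centred on their medians the 2 medians were 0.11 and 0.04, both above 0, so the opposite sides depended on the scaling. Centring moved the differences of all genes in that comparison by the same amount. The regulatory median with LOC400043 siRNA 1 was 0.00 without PSMC1 and PSMC6, whose probe sets in that table lie on other chromosomes than the genes.

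**Figure D3:**
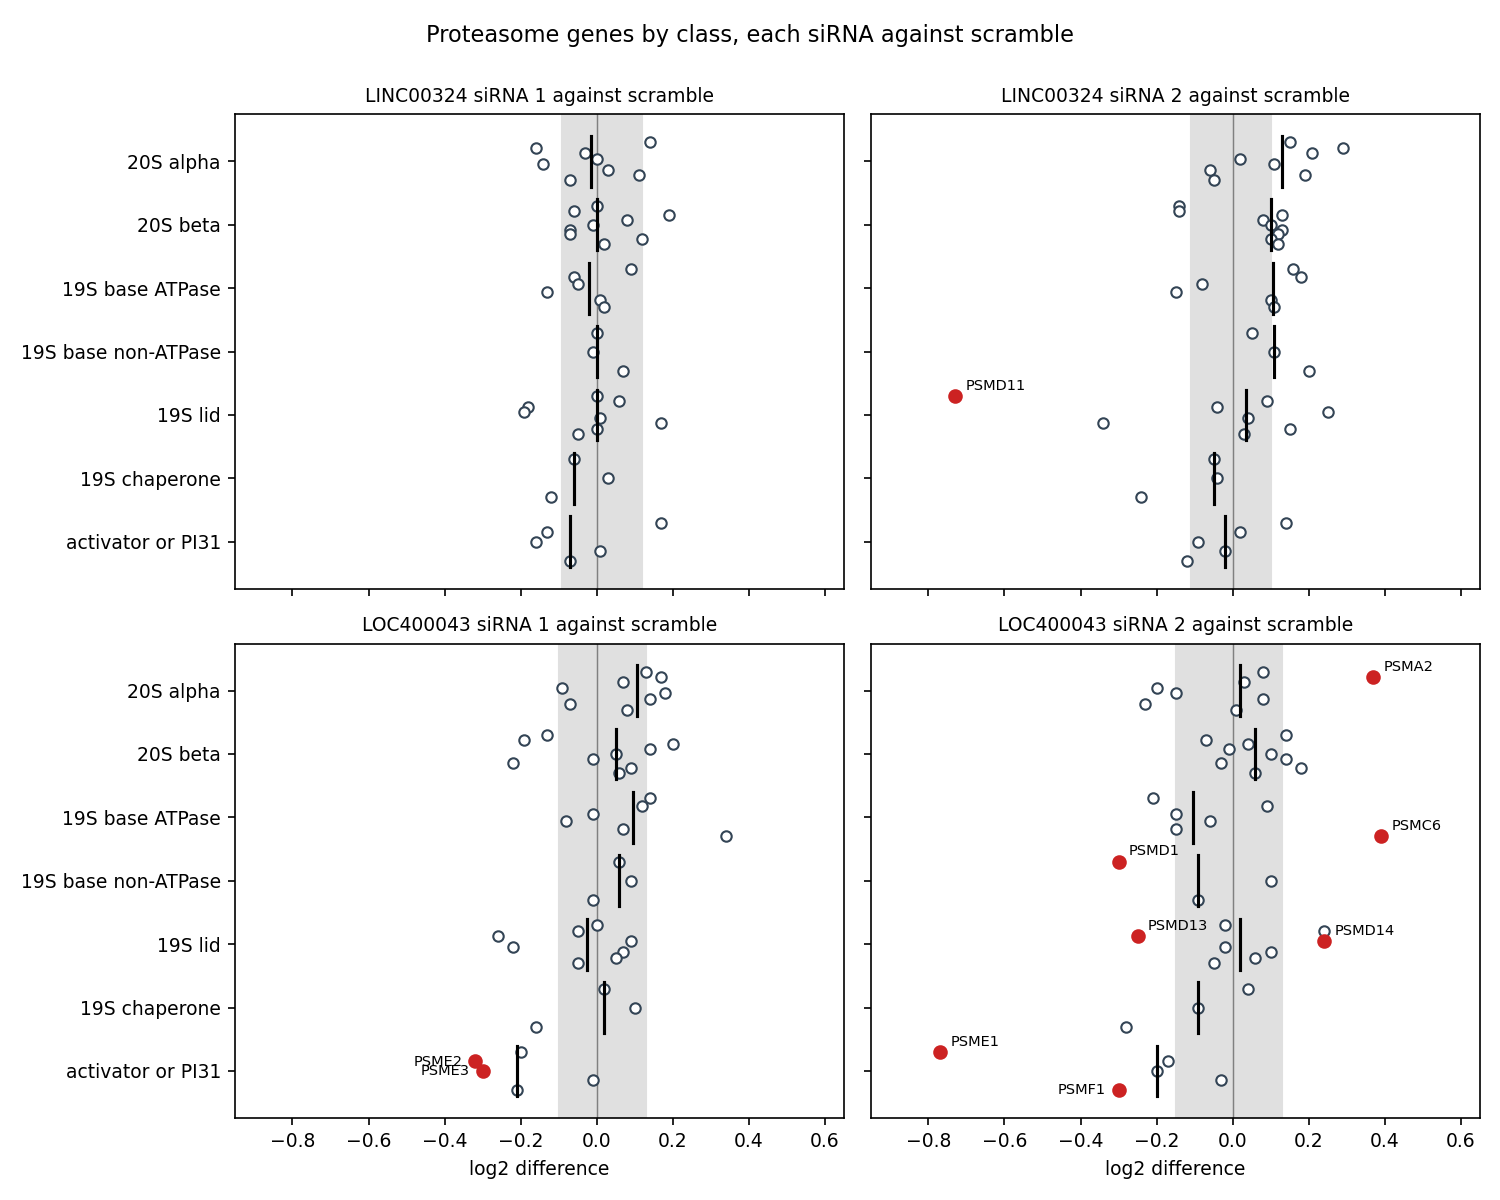
Log2 difference from scramble of each proteasome gene (points), by class, for the 4 siRNAs; vertical bars are class medians, the grey band runs from the lower to the upper quartile of all 18480 genes, and red points with names are the called genes. Called genes number 0 and 1 in the upper panels and 2 and 7 in the lower panels, and most other points lie in or near the grey band.

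Promoter sequences are shown for PSMD11, the only gene called with a LINC00324 siRNA against scramble, and for PSME1 and PSME2, which encode partners in PA28 and were each called lower with one LOC400043 siRNA. RefSeq promoters on GRCh38.p14 were found for 37 of the 42 genes; PSMA7, PSMB1, PSMB6, PSMB7 and PSMD4 had no entry. The 250 bases before the start are printed on the strand of the gene, 5' to 3', for PSMD11 at chr17:32444260-32444509 (plus strand), PSME1 at chr14:24135944-24136193 (plus strand) and PSME2 at chr14:24146611-24146860 (minus strand). Capitals mark matches on either strand to TGACNNNGC (the antioxidant response element core, which NFE2L1 and its relative NFE2L2 can bind), CCAAT (the CCAAT box) or CCGGAA (a core that ETS factors can bind).
PSMD11: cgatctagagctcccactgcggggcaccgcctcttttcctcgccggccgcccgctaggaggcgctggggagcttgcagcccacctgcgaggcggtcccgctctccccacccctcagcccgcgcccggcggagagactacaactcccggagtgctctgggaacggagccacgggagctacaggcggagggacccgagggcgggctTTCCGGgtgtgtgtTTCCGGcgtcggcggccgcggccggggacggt
PSME1: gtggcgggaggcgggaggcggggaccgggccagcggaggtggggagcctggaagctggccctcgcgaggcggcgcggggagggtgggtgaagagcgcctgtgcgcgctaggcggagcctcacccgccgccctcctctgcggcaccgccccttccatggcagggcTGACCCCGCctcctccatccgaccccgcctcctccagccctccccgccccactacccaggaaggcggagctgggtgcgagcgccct
PSME2: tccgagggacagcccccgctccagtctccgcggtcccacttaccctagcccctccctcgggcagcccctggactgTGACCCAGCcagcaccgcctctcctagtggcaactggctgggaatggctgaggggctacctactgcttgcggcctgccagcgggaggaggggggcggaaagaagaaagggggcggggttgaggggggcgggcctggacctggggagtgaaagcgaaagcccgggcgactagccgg
PSMD11 held 2 CCGGAA matches, both on the opposite strand, and PSME1 and PSME2 each held 1 TGACNNNGC match. Among the 37 promoters, TGACNNNGC was present in 8 (21.6%), CCAAT in 16 (43.2%) and CCGGAA in 15 (40.5%). These shares differed by particle. TGACNNNGC was present in 1 of 13 core genes (7.69%), 2 of 16 regulatory genes (12.5%) and 5 of 8 others (62.5%). For CCAAT the shares were 46.2%, 50% and 25% in the same order, and for CCGGAA 7.69%, 62.5% and 50%. Among the promoters of 12080 genes in the LINC00324 table the shares were 11.6%, 34.5% and 19.4%, and among all 27305 RefSeq promoters they were 11%, 33% and 14.8%. A match describes the letters only.

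The alpha subunits form the outer rings of the core and gate the entry to the barrel. None of the 8 alpha genes was called with either LINC00324 siRNA or with LOC400043 siRNA 1, and 1, PSMA2, was called higher with LOC400043 siRNA 2. PSMA2 read 11.00 and 11.23 in the scramble arrays of that table, 11.24 and 11.34 with siRNA 1, and 11.44 and 11.53 with siRNA 2. Both siRNA groups lay above the scramble arrays without overlap. The log2 difference was 0.37 (SE 0.09, adjusted p = 0.0299) with siRNA 2 and 0.17 (SE 0.09, adjusted p = 0.281) with siRNA 1, and the difference between the siRNAs, -0.20, was not called (adjusted p = 0.212). The call with siRNA 2 was lost without scramble replicate 1, which is the lowest array, and when any one siRNA array was left out.

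In the LINC00324 table PSMA2 read 11.12 and 11.26 with scramble, 11.01 and 11.05 with siRNA 1 and 11.42 and 11.54 with siRNA 2. The siRNA groups thus lay on opposite sides of the scramble arrays, with differences of -0.16 and 0.29 (adjusted p = 0.52 and 0.172), and the difference between the siRNAs was -0.45 (SE 0.09, adjusted p = 0.055), which misses the threshold. PSMA5 differed between the LOC400043 siRNAs. It read 9.83 and 10.00 with scramble, 10.02 and 10.16 with siRNA 1 and 9.74 and 9.80 with siRNA 2, so that siRNA 1 lay above and siRNA 2 below the scramble arrays. Neither was called against scramble (0.18 and -0.15, adjusted p = 0.246 and 0.287), while siRNA 1 minus siRNA 2 was 0.32 (SE 0.09, adjusted p = 0.0456). The other 6 alpha genes (PSMA1, PSMA3, PSMA4, PSMA6, PSMA7 and PSMA8) differed by -0.07 to 0.21 with the LINC00324 siRNAs and by -0.23 to 0.14 with the LOC400043 siRNAs. PSMA8, an alpha subunit of the testis, had a mean log2 signal under 5 in both tables.

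The beta subunits form the inner rings, and PSMB5, PSMB6 and PSMB7 carry the cutting sites. None of the 9 beta genes was called with any of the 4 siRNAs against scramble. Differences over the class, which also holds PSMB2, PSMB3 and PSMB4, ran from -0.07 to 0.19 with LINC00324 siRNA 1. They ran from -0.14 to 0.13 with LINC00324 siRNA 2, from -0.22 to 0.20 with LOC400043 siRNA 1 and from -0.07 to 0.18 with LOC400043 siRNA 2. PSMB6 was the only proteasome gene whose arrays with all 4 siRNAs lay above both scramble arrays in each table (3.05% of all genes with a probe set in both tables did). Its differences were 0.12 and 0.10 with the LINC00324 siRNAs and 0.09 and 0.18 with the LOC400043 siRNAs, none of them called. PSMB5 had the largest difference from scramble of the class, with LOC400043 siRNA 1. It read 10.66 and 10.72 with scramble, 10.51 and 10.42 with siRNA 1 and 10.63 and 10.69 with siRNA 2, a difference of -0.22 (SE 0.07, adjusted p = 0.0945) and of -0.03 (SE 0.07, adjusted p = 0.8).

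PSMB1, a subunit without a cutting site, differed between the LOC400043 siRNAs. It read 10.20 and 10.25 with scramble, 10.10 and 10.09 with siRNA 1 and 10.35 and 10.37 with siRNA 2, and the 3 groups did not overlap. The difference between siRNA 1 and siRNA 2 was -0.26 (SE 0.06, adjusted p = 0.0306), made of -0.13 and 0.14 against scramble. PSMB10, which replaces PSMB7 in the immunoproteasome, differed by -0.06 and -0.14 with the LINC00324 siRNAs and by -0.19 and -0.07 with the LOC400043 siRNAs. PSMB11, a subunit of the thymus, had a mean log2 under 5 in the LOC400043 table. The PSMB4 probe set spans 30422 bases, against 2365 bases for the RefSeq gene. It overlaps one named SELENBP1 by 1211 bases on the opposite strand, and the part of the wider span in the PSMB4 signal was not tested.

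The 6 ATPases of the base, PSMC1 to PSMC6, form the ring that unfolds substrates. With the LINC00324 siRNAs their differences ran from -0.15 to 0.18 and none was called. Of the ATPases PSMC6 was called higher with LOC400043 siRNA 2. It read 9.32 and 9.52 with scramble, 9.76 and 9.75 with siRNA 1 and 9.76 and 9.85 with siRNA 2. All 4 siRNA arrays lay above the scramble arrays, with differences of 0.34 (SE 0.09, adjusted p = 0.0544) and 0.39 (SE 0.09, adjusted p = 0.0218). The call was lost without scramble replicate 1, the lowest array, and when any one siRNA array was left out.

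PSMC1 differed between the LOC400043 siRNAs, reading 10.98 and 11.05 with scramble, 11.13 and 11.17 with siRNA 1 and 10.75 and 10.87 with siRNA 2. The siRNA groups lay on either side of the scramble arrays, and siRNA 1 minus siRNA 2 was 0.34 (SE 0.07, adjusted p = 0.02).

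The probe sets behind these 2 ATPases differ between the tables. In the LINC00324 table both lie on chromosome 14, as the RefSeq genes do. In the LOC400043 table the probe set named PSMC1 lies on chromosome 3 (68684836 to 68686422, 1587 bases) and the one named PSMC6 on chromosome 8 (1170 bases), on the coordinates of the deposited table, for which no source used here gives a build. The chromosome 14 probe sets were read from the value table of all probe sets for the same arrays. There siRNA 1 minus siRNA 2 of LOC400043 was 0.32 for PSMC1 on chromosome 14, close to the 0.34 on chromosome 3. For PSMC6 it was 0.08 on chromosome 14 and -0.05 on chromosome 8. A comparison of the chromosome 14 probe sets with scramble was not made, because in that value table the LOC400043 arrays and the scramble arrays come from separate normalizations. What the probe set on chromosome 8 measures was not tested, and the call for PSMC6 is given as uncertain.

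PSMD1, PSMD2 and PSMD4 belong to the base without being ATPases. PSMD1, the scaffold to which the ubiquitin receptor ADRM1 binds, was called lower with LOC400043 siRNA 2. It read 11.38 and 11.47 with scramble, 11.47 and 11.50 with siRNA 1 and 11.15 and 11.12 with siRNA 2. Only the siRNA 2 arrays lay below the scramble arrays, by -0.30 (SE 0.07, adjusted p = 0.022), against 0.06 (adjusted p = 0.628) with siRNA 1, and siRNA 1 minus siRNA 2 was 0.35 (SE 0.07, adjusted p = 0.0142). The call against scramble was lost without scramble replicate 2, when any one siRNA array was left out, and with arrays centred on their medians. With the LINC00324 siRNAs PSMD1 differed by 0.00 and 0.05. PSMD2 and PSMD4 differed by -0.09 to 0.20 over the 4 siRNAs and were not called.

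The lid holds 8 of the genes, among them PSMD14, the enzyme that cuts ubiquitin chains off substrates, and PSMD11, a scaffold subunit. PSMD11 was the 1 gene of the 42 called with LINC00324 siRNA 2 against scramble, in a comparison in which 1.85% of all genes were called and 1.34% were called lower. Its probe set lies on chromosome 17 (30771491 to 30808042, plus strand). PSMD11 read 11.40 and 11.42 in the scramble arrays, 11.41 and 11.41 with LINC00324 siRNA 1, and 10.69 and 10.67 with LINC00324 siRNA 2. The siRNA 1 arrays lay between the scramble arrays, and both siRNA 2 arrays lay far below them. The difference with siRNA 2 was -0.73 (SE 0.07, 95% interval -0.90 to -0.55, adjusted p = 0.0175), whereas with siRNA 1 it was 0.00 (SE 0.07).

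The difference between the 2 siRNAs against LINC00324 was tested directly, and PSMD11 was 1.66-fold higher with siRNA 1 than with siRNA 2 (log2 0.73, SE 0.07, adjusted p = 0.0156). In the LOC400043 table it read 11.26 and 11.34, 11.28 and 11.33, and 11.25 and 11.31 in the same order of groups, with overlapping groups and differences of 0.00 and -0.02. The authors' deposited table, which pools both siRNAs of a lncRNA, gives -0.36 for PSMD11 with an unadjusted p of 0.186. The adjusted p for siRNA 2 against scramble was between 0.137 and 0.25 when either scramble array or either siRNA 2 array was left out, settings in which no gene at all was called in that comparison, and the difference stayed between -0.74 and -0.72.

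**Figure D4:**
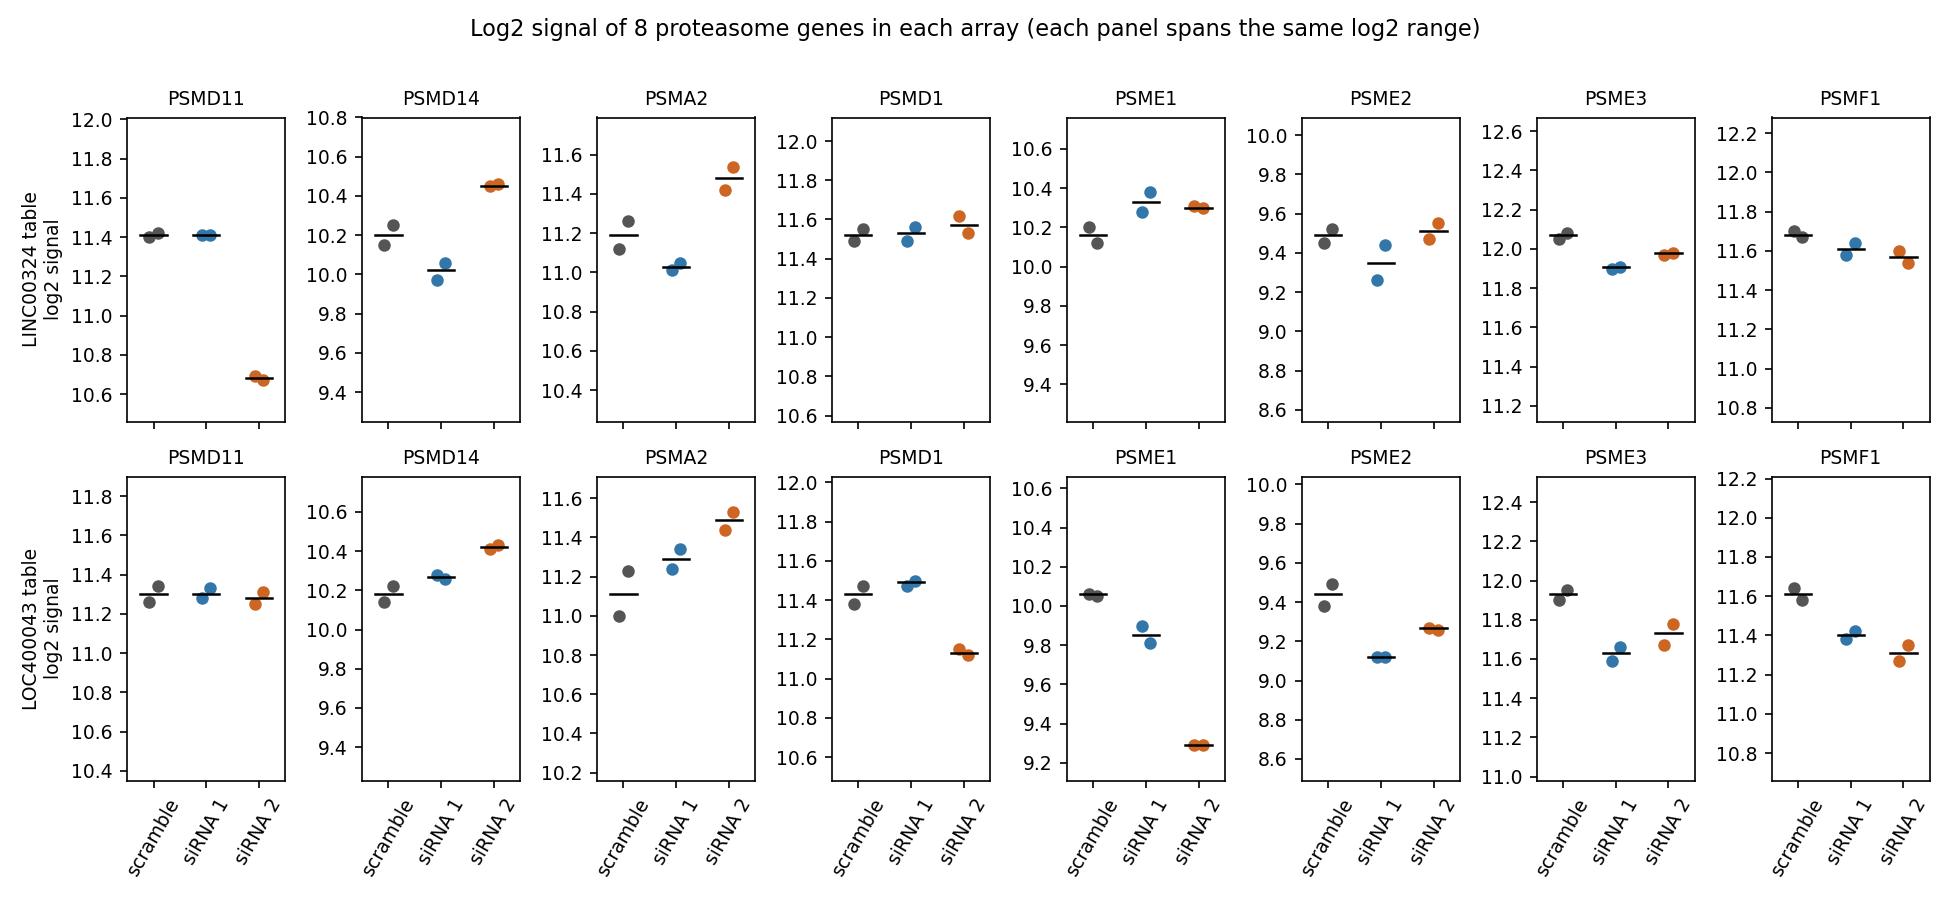
Log2 signal of 8 proteasome genes in each array (points) with the mean of each group of 2 (bars), in the LINC00324 table (upper row) and the LOC400043 table (lower row); every panel spans the same log2 range. Each panel is placed around its own scramble mean. Measured from that mean, the PSMD11 arrays with siRNA 2 (10.69 and 10.67) lie lowest in the upper row. In the lower row the PSME1 arrays with siRNA 2 (9.29 and 9.29) do.

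PSMD14 read 10.15 and 10.25 with scramble, 9.97 and 10.06 with LINC00324 siRNA 1 and 10.45 and 10.46 with LINC00324 siRNA 2. The siRNA groups lay on opposite sides of the scramble arrays, by -0.19 and 0.25 (adjusted p = 0.409 and 0.193). Their difference was -0.44 (SE 0.08, adjusted p = 0.0482), which was not called when any one array was left out or with the replicate block. In the LOC400043 table PSMD14 read 10.14 and 10.22 with scramble, 10.28 and 10.26 with siRNA 1 and 10.41 and 10.43 with siRNA 2, all 4 siRNA arrays above the scramble arrays. It was called higher with siRNA 2 (0.24, SE 0.07, adjusted p = 0.0434) and not with siRNA 1 (0.09, adjusted p = 0.429). The PSMD14 probe set, on chromosome 2, overlaps one named MXRA7 by 1887 bases on the opposite strand. Whether that name fits the place of the MXRA7 gene was not checked. The probe set named MXRA7 differed by -0.34 (adjusted p = 0.154) and -1.09 (adjusted p = 0.0024) with these siRNAs. That is the other direction from PSMD14, and its part was not tested.

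PSMD13, another lid subunit, read lower with both LOC400043 siRNAs by similar amounts. It read 9.58 and 9.64 with scramble, 9.39 and 9.32 with siRNA 1 and 9.35 and 9.38 with siRNA 2. The difference of -0.25 with siRNA 2 was called (SE 0.07, adjusted p = 0.0377) and that of -0.26 with siRNA 1 was just outside (SE 0.07, adjusted p = 0.0506). The calls of PSMD13 and PSMD14 with siRNA 2 were lost without scramble replicate 1 and when any one siRNA array was left out, and that of PSMD13 also without scramble replicate 2. PSMD12 separated the LOC400043 siRNAs, reading 9.79 and 9.94 with scramble, 9.79 and 9.83 with siRNA 1 and 10.08 and 10.13 with siRNA 2, and siRNA 1 minus siRNA 2 was -0.30 (SE 0.08, adjusted p = 0.0394). PSMD6 was the lid gene closest to a call between the LINC00324 siRNAs, reading 9.87 and 9.96 with scramble, 9.97 and 10.21 with siRNA 1 and 9.62 and 9.54 with siRNA 2, with a difference of 0.51 (SE 0.11, adjusted p = 0.0624). The remaining lid genes, PSMD3, PSMD7 and PSMD8, differed by -0.22 to 0.15 over the 4 siRNAs and were not called.

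The chaperones PSMD5, PSMD9 and PSMD10 help to build the 19S base and leave before it is complete. None was called. PSMD9 read 8.94 and 8.88 with scramble, 8.80 and 8.70 with LOC400043 siRNA 1 and 8.54 and 8.74 with siRNA 2, differences of -0.16 and -0.28 (adjusted p = 0.285 and 0.0677), and it differed by -0.12 and -0.24 with the LINC00324 siRNAs. PSMD5 had a mean log2 under 5 in both tables.

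The activators and PI31 gave the lowest class medians with the LOC400043 siRNAs. Against scramble all 5 genes, PSME1 to PSME4 and PSMF1, lay below 0 with both siRNAs, and the class median was -0.23 and -0.24 in the arrays with siRNA 1 and -0.26 and -0.18 in those with siRNA 2, against -0.02 and 0.02 in the scramble arrays and -0.01 to 0.03 for all genes in the siRNA arrays. The 2 genes called with LOC400043 siRNA 1, PSME2 and PSME3, both lower, belong to this class, in a comparison in which 11.5% of all genes were called and 7.46% were called lower. With siRNA 2 the class held 2 of the 4 genes called lower, PSME1 and PSMF1, where 21.7% of all genes were called and 13.8% were called lower. PSME4, which encodes PA200, differed by -0.01 and -0.03.

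PSME1, which encodes the alpha subunit of PA28, had the largest difference of all 42 genes. Its probe set lies on chromosome 14 (24591367 to 24608176, plus strand). It read 10.06 and 10.05 with scramble, 9.90 and 9.81 with LOC400043 siRNA 1, and 9.29 and 9.29 with LOC400043 siRNA 2. The 3 groups did not overlap, and the siRNA 2 arrays were lowest. The difference was -0.77 with siRNA 2 (SE 0.07, 95% interval -0.92 to -0.61, adjusted p = 0.000897) and -0.20 with siRNA 1 (SE 0.07, adjusted p = 0.0997). Directly compared, PSME1 was 1.48-fold higher with siRNA 1 than with siRNA 2 (log2 0.57, SE 0.07, adjusted p = 0.00242). The call with siRNA 2 held in each alternative that was run, leaving out any single array included.

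The PSME1 probe set spans 16810 bases, against 2769 bases for the RefSeq gene, and overlaps the probe sets of DCAF11 by 3085 bases and of FITM1 by 1291 bases on the same strand. DCAF11 differed by -0.03 (adjusted p = 0.851) with LOC400043 siRNA 1 and by -0.54 (adjusted p = 0.0037) with siRNA 2, and siRNA 1 minus siRNA 2 was 0.51 (adjusted p = 0.00535). FITM1 differed by 0.30 and 0.09 and was not called. The part of DCAF11 in the PSME1 signal was not tested. With the LINC00324 siRNAs PSME1 differed by 0.17 and 0.14 and DCAF11 by -0.05 and -0.05, none of them called.

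PSME2, the beta subunit of PA28, read 9.38 and 9.49 with scramble, 9.12 and 9.12 with LOC400043 siRNA 1 and 9.27 and 9.26 with siRNA 2. Both siRNA groups lay below the scramble arrays, siRNA 1 lowest, by -0.32 (SE 0.07, adjusted p = 0.0298) and -0.17 (SE 0.07, adjusted p = 0.123). The PA28 subunit genes thus had their lower values with different siRNAs, PSME1 with siRNA 2 and PSME2 with siRNA 1. For PSME2 the difference between the siRNAs was -0.14 and not called (adjusted p = 0.217).

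PSME3 encodes PA28 gamma, a nuclear activator. It read 11.90 and 11.95 with scramble, 11.59 and 11.66 with siRNA 1 and 11.67 and 11.78 with siRNA 2, again with all 4 siRNA arrays below, by -0.30 (SE 0.07, adjusted p = 0.0423) and -0.20 (SE 0.07, adjusted p = 0.0942). PSMF1 encodes PI31, a proteasome-binding protein first described as an inhibitor of the core. It read 11.64 and 11.58 with scramble, 11.38 and 11.42 with siRNA 1 and 11.27 and 11.35 with siRNA 2. Its difference was called with siRNA 2 (-0.30, SE 0.07, adjusted p = 0.0228) and not with siRNA 1 (-0.21, SE 0.07, adjusted p = 0.0993). When scramble replicate 2 or any one siRNA array was left out, PSME2 and PSME3 were not called with siRNA 1, and PSME3 was also not called without scramble replicate 1. PSME3 was also lost without scramble replicate 1. The PSMF1 call was lost without scramble replicate 1 and when any one siRNA array was left out, and centring on array medians ended the calls of PSME3, PSMF1 and PSMD13. In the authors' deposited table, which pools both siRNAs, the difference is -0.48 for PSME1, -0.25 for PSME2 and -0.25 for PSMF1, with unadjusted p of 0.0463, 0.0226 and 0.012.

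Arrays that do not overlap with scramble were counted as well. With LINC00324 siRNA 1, both arrays lay above both scramble arrays for 8 of the 42 genes and below them for 13, where 17.8% and 21.3% of all genes did. With LINC00324 siRNA 2 the counts were 20 above and 11 below, where 22.3% and 27.4% of all genes did. The 20 comprise 11 core genes, 8 regulatory genes and PSME1, and include PSMB5, PSMB6 and PSMB7, the catalytic subunits. With LOC400043 siRNA 1 the counts were 13 above and 12 below (28.2% and 26.8% of all genes), and with LOC400043 siRNA 2 they were 11 above and 16 below (26% and 30.9% of all genes). When the arrays of both siRNAs had to lie on the same side, 5 proteasome genes were above and 7 below in the LINC00324 table, where 7.87% and 11.8% of all genes were. For the LOC400043 siRNAs 7 were above and 9 below, where 13.5% and 17.1% of all genes were. The 7 comprise 4 core and 3 regulatory genes, and the 9 comprise 4 regulatory genes, the chaperone PSMD9 and the activator or PI31 genes PSME1, PSME2, PSME3 and PSMF1, with 0 core genes. Of the 40 genes with one probe set in both tables, 5 (PSMC3, PSMD13, PSMD9, PSME3 and PSMF1) lay below the scramble arrays in all 8 siRNA arrays, where 5.43% of all genes did. The tables share the scramble arrays, so these are not independent counts. For PSME3 the differences were -0.16 and -0.09 with the LINC00324 siRNAs and -0.30 and -0.20 with the LOC400043 siRNAs, and for PSMF1 they were -0.07 and -0.12, and -0.21 and -0.30. Other gaps among these 5 genes were very small. PSMC3 read 9.90 and 9.89 with scramble and 9.88 and 9.89 with LOC400043 siRNA 1. PSMD13 read 9.66 and 9.67 with scramble and 9.60 and 9.65 with LINC00324 siRNA 2.

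Other genes of the pathway were read from a list of 42, of which 39 were found. The probe sets named UBQLN4 and RPS27A lie on chromosomes 3 and 16, while the RefSeq genes are on chromosomes 1 and 2. Neither was called in any comparison. The list was written with earlier results of these data known. It holds proteasome subunits and assembly factors without a PSMA to PSMF symbol, proteasome-associated proteins, regulators of subunit transcription, and ubiquitin genes with the enzymes that feed the proteasome. With either LINC00324 siRNA 0 of 39 were called, beside 0.498% and 1.85% of all genes, with 2 and 5 (5.13% and 12.8%) at an unadjusted p under 0.05, beside 13.2% and 15.9% of all genes. LOC400043 siRNA 1 called 2 (5.13%) lower, beside 11.5% of all genes called. These were ECPAS, a scaffold that binds proteasomes (-0.30, adjusted p = 0.0289), and NFYA, a subunit of the factor that binds the CCAAT box (-0.27, adjusted p = 0.038). LOC400043 siRNA 2 called 16 of 39 (41%), 9 higher and 7 lower, beside 21.7% of all genes. Some of these calls lay close to the threshold, as that of NPLOC4 (adjusted p = 0.0497). The alternatives at the end are not given for the 39 genes, so how far their calls hold is not shown.

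Among those 16, the largest differences were -0.67 for PAAF1, which binds the free 19S ATPases (adjusted p = 0.00268), -0.58 for PSMG4, a chaperone of the core alpha ring (adjusted p = 0.00346), and 0.63 for MAFG, a partner of NFE2L1 on DNA (adjusted p = 0.00236). MAFG was read from different probe sets in the 2 tables. NFE2L1 was called higher with LOC400043 siRNA 2 (0.26, SE 0.06, adjusted p = 0.0273), with a like value with siRNA 1 (0.24, SE 0.06, adjusted p = 0.0521), and differed by -0.01 and 0.18 with the LINC00324 siRNAs. The remaining subunits outside the symbol rule, ADRM1 and SEM1, and POMP, which matures the core, were not called in any comparison. ADRM1 differed by 0.02 to 0.11 over the 4 siRNAs, SEM1 by -0.01 to 0.20, and POMP by 0.05 to 0.17.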

How the data were processed

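RNA of 10 arrays was measured. The authors deposited log2 values made with RMA (background correction, quantile normalization and probe summary) and, for both siRNAs pooled, a log2 difference with an unadjusted p-value from limma, tools named per the submitters' processing notes; no source used here gives versions, genome build or annotation. A value table of all probe sets held the same arrays. Each table was fitted alone and unfiltered on its 3 groups in R 4.3.3, using lmFit, contrasts.fit and eBayes of limma 3.58.1 (two-sided, 3 residual degrees of freedom). Benjamini-Hochberg adjustment covered all 18480 genes. The fit was tested on simulated data. Fitted errors of the 42 genes ran from 0.06 to 0.17 (log2); the number of arrays limits the precision, and p-values measure the spread between arrays labelled as biological replicates.

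All 42 genes are named. Array values are given for those called in any comparison and, in each class, for the one with the largest difference; PSMD6 was added after its values were seen. The genes, classes and lists were chosen with earlier results of these data known. The alternatives tried were a filter on a mean log2 of at least 5, a replicate block, an intensity trend, a second quantile normalization, centring on array medians, the 10 arrays of the value table, and leaving out each array. Promoters and gene names came from RefSeq on GRCh38.p14.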

Additional observations from a re-analysis of the deposited data

Results flagged for a closer look

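The effects of 2 siRNAs against the same lncRNA differed, by the limma test of siRNA 1 minus siRNA 2, for 8 genes. They were 2 of the 42 for LINC00324 (4.76%, beside 3.07% of all genes) and 6 of the 42 for LOC400043 (14.3%, beside 17.1% of all genes), shares near those of all genes. For LINC00324 the difference was 0.73 (log2) for PSMD11 and -0.44 for PSMD14. For LOC400043 it was 0.57 for PSME1, 0.35 for PSMD1, 0.34 for PSMC1, 0.32 for PSMA5, -0.26 for PSMB1 and -0.30 for PSMD12. For PSMD11 the siRNA 1 arrays lay at the scramble level and the siRNA 2 arrays below it. For PSME1 the arrays of both siRNAs lay below the scramble arrays, siRNA 2 further. The call of PSMD14 was lost with the replicate block and when any one array was left out, and that of PSMD11 without either siRNA 2 array. For LOC400043, the calls other than that of PSME1 were lost when any one siRNA array was left out.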

How the results depend on the processing

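PSME1 with LOC400043 siRNA 2 passed the threshold in each alternative, and the difference of PSMD11 with LINC00324 siRNA 2 kept its direction in each. No called gene changed direction. Values that moved are listed below, though not every one of them, with medians (log2) in the order core then regulatory. The cause was not tested. The trend called 931, 1500 and 1859 of all 18480 genes for LINC00324 siRNA 1, siRNA 2 and their difference. For LOC400043 it called 3479, 5143 and 4297. The second normalization called 340, 781 and 1150, then 2421, 4250 and 3381. Centring, which moves all genes alike, called 92, 306 and 495, then 2063, 4087 and 3059. The filter called 657 of 16380 genes for the LINC00324 difference and 2389 of 16052 for LOC400043 siRNA 1. The 10 arrays called 1712 for the LINC00324 difference. With LINC00324 siRNA 1, an intensity trend called 1 higher and 1 lower, and a second quantile normalization gave a core median of 0.01. With LINC00324 siRNA 2, the trend called 4 higher and 2 lower, the second normalization gave a core median of 0.09, and centring on array medians gave 0.18 and 0.16. For LINC00324 siRNA 1 minus siRNA 2, the replicate block called 0 lower, the filter on a mean log2 of at least 5 called 2 lower with a core median of -0.05, the trend called 2 higher and 5 lower, the second normalization and the 10 arrays of the value table each called 2 higher and 2 lower, and centring gave -0.08 and -0.14. With LOC400043 siRNA 1, the replicate block, the filter and the second normalization each called 1 higher, the trend called 3 higher and 7 lower, the second normalization gave a regulatory median of 0.07, centring called 1 lower with a core median of 0.09, and leaving out PSMC1 and PSMC6, chosen after seeing the data, gave a regulatory median of 0.00. With LOC400043 siRNA 2, the trend called 6 higher and 9 lower, the second normalization called 5 higher, and centring called 5 higher and 1 lower with medians of 0.11 and 0.04. For LOC400043 siRNA 1 minus siRNA 2, the filter gave a core median of 0.00, the trend called 5 lower, and centring gave -0.01 and -0.06. Of the 42 genes, the replicate block and the filter each called 2 that the main fit did not for LOC400043 siRNA 1. For LOC400043 siRNA 2 each of these added 1. For LOC400043 siRNA 1 minus siRNA 2 the trend added 5. The block, the filter, the second normalization, centring and the 10 arrays each added 1 there.

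Leaving out each array in turn gave these ranges. With LINC00324 siRNA 1 the core median ran from -0.01 to 0.01 and the regulatory median from -0.04 to 0.03. With LINC00324 siRNA 2, 0 to 1 genes were called lower, and the medians ran from 0.09 to 0.12 and from 0.04 to 0.10. For LINC00324 siRNA 1 minus siRNA 2, 0 to 2 were called higher and 0 lower in each case, with medians from -0.09 to 0.00 and from -0.11 to -0.02. With LOC400043 siRNA 1, 0 to 1 were called higher and 0 to 1 lower, with medians from 0.04 to 0.07 and from 0.02 to 0.07. With LOC400043 siRNA 2, 0 to 4 were called higher and 1 to 2 lower, with a core median from 0.04 to 0.07. For LOC400043 siRNA 1 minus siRNA 2, 1 to 5 were called higher and 0 to 2 lower, with medians from -0.01 to 0.03 and from -0.01 to 0.03. An array left alone in its group is assumed to vary like the other groups.

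The labels do not say that a replicate number marks a shared culture or day, and the arrays were not treated as paired. The check was mixed: differences between replicates 1 and 2 correlated across genes at 0.598, -0.185 and -0.382 in the LINC00324 table and at 0.229, 0.372 and 0.091 in the LOC400043 table (in each, scramble with siRNA 1, scramble with siRNA 2, and siRNA 1 with siRNA 2). The replicate block moved the genes called among all 18480 from 92 to 82, 341 to 301 and 567 to 466 for LINC00324 siRNA 1, siRNA 2 and their difference, and from 2128 to 2822, 4016 to 4814 and 3165 to 3777 for LOC400043. The fit on the 10 arrays of the value table was not run for LOC400043 against scramble, since those columns come from separate normalizations. The number of arrays limits each result.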
